A study of Mus musculus with 20 samples.

Results

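The potassium channel genes measured here were the 73 genes whose symbol starts with Kcn among the 13256 genes listed for mouse hippocampus. They were chosen by symbol and by a floor of 0.5 FPKM (fragments mapped to a gene, scaled to its transcript length and to the size of the library) in at least 5 of 20 libraries. All 73 listed Kcn genes passed that floor, as did 13174 of the 13256 genes listed. Kcn genes that are not listed have no values here, so whether any lay just outside the floor is unknown. The 73 include pore-forming subunits and the auxiliary subunits that travel with them.

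Hippocampal RNA came from C57 mice, labelled WT, and from Fmr1 KO mice. Females and males of each genotype made 4 groups of 5 libraries. Every sample title also carries Con, a label that all groups share. The Fmr1 product, FMRP, binds neuronal mRNAs, and its loss causes fragile X syndrome in humans. The series title names sex differences as its subject, so KO was compared with WT within each sex and the sexes were compared within each genotype. The titles call the mutants KO while the genotype field calls them a knockdown, no age or allele is given in the labels used here, and no label says that the 5 samples of a group are separate animals, so a p-value reflects the spread among these samples, which may be technical.

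Potassium channels let potassium leave the cell and so pull the membrane back toward rest. Voltage-gated channels end action potentials and set firing rate, inward rectifiers and K2P leak channels hold the resting potential, and calcium- or sodium-activated channels follow bursts of activity. In hippocampal neurons they shape how dendrites sum input and how much transmitter a spike releases, and in astrocytes they clear extracellular potassium.

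Fmr1 averaged 10.6 ± 0.558 FPKM in WT females and 3.32 ± 0.327 in KO females (SD, n = 5). The male means were 11.4 ± 0.527 for WT and 3.56 ± 0.187 for KO (SD, n = 5). It was lower in every KO library than in every WT library of its sex. The 6 general neuronal markers, which include Snap25 and Neurod6, summed to 885 to 952 FPKM per library, and none of them was at 0 throughout. Neurod6 alone among them passed between female KO and WT, where it was lower (-0.23, limma adjusted p = 0.00188). Choroid plexus RNA varied between libraries: Ttr, a transthyretin gene of that epithelium, exceeded 500 FPKM in female WT 4, female KO 4 and 5, and male KO 2. The pituitary hormone gene Prl read 4.63, 42.2 and 22.1 FPKM in female KO 2, 3 and 4 and at most 1.68 in the other libraries. Of 5 pituitary markers, 3 were in the files, and their sum ran from 0.508 to 129 FPKM in female KO against 0.128 to 4.52 in female WT. Markers of skeletal muscle summed to 5.57 to 8.72 FPKM in male WT and to at most 4.0 in the other groups. FPKM carry no depth, so the precision of a single value is unknown.

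The 73 genes together gave 692 FPKM per library on average, with a range of 670 to 722. FPKM are scaled to transcript length, so levels of different genes are set side by side here as a rough order. The levels were not adjusted for GC content here. Those of the 25 members that share exon positions with another gene may include its reads. Auxiliary subunits made up 29.2% of that sum, voltage-gated pore subunits of the Kcna to Kcnd families 23.1%, inward rectifiers 16.0%, the EAG and KCNQ families 9.28%, K2P leak channels 8.85%, silent modifier subunits 7.84% and ligand-gated channels 5.64%. The highest member was Kcnab2, a beta subunit of the Kcna channels, at 84.7 FPKM. Next came the leak channel Kcnk1 at 36.9, the Kcnd partner Kcnip2 at 32.5, the dendritic A-type channel Kcnd2 at 32.3 and the astrocyte rectifier Kcnj10 at 31.1 FPKM. The lowest means belonged to Kcng3 (0.450 FPKM), Kcne4 (0.520) and Kcna5 (0.599). Of the 73, 9 did not reach the floor in every library, and Kcne2 reached it in 6 libraries, Kcng3 in 7 and Kcnj13 in 10.

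**Figure D1:**
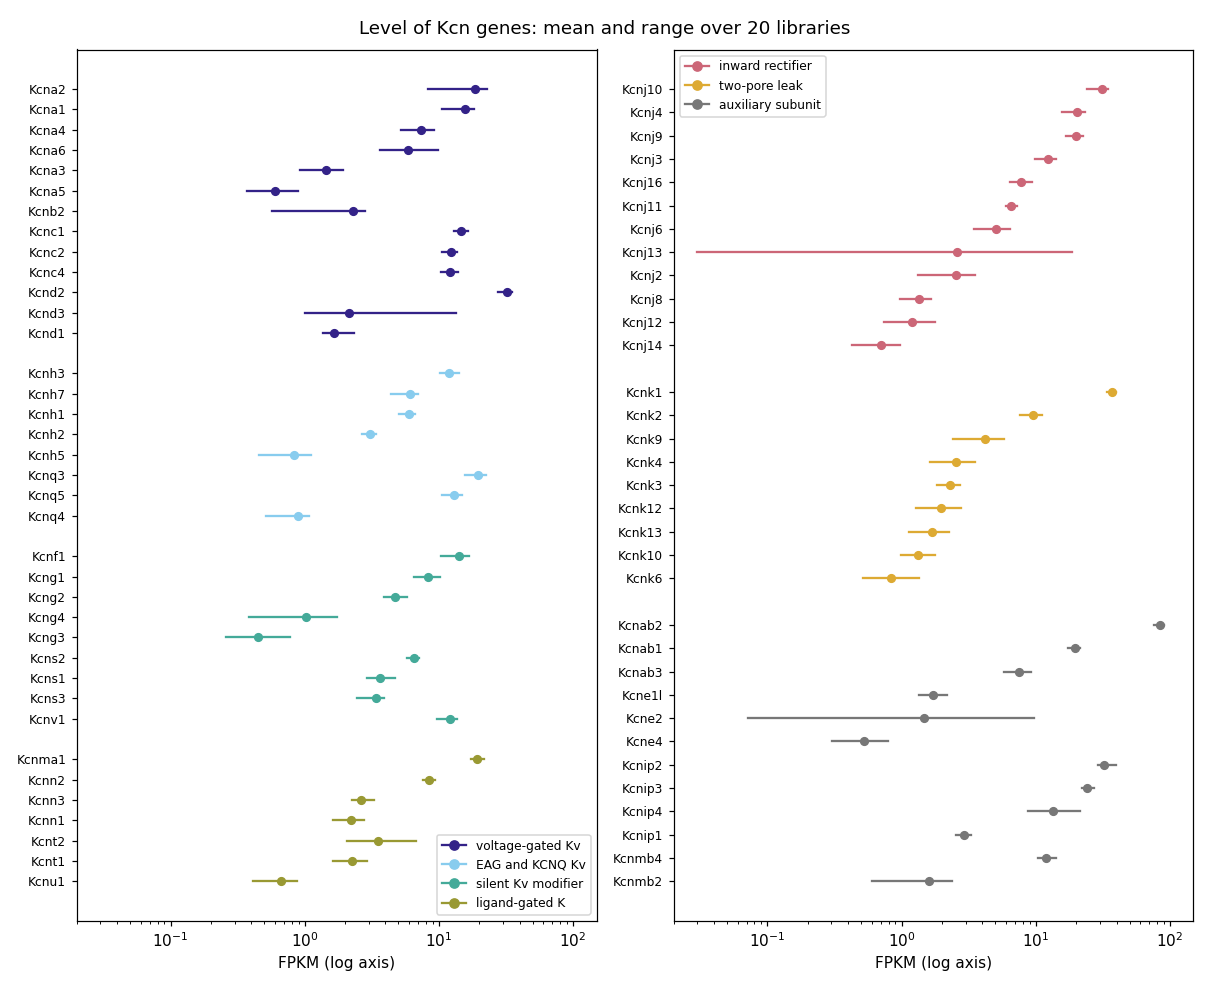
Mean FPKM (point) and range over 20 libraries (line) of Kcn genes on a log axis, coloured by class, with K2P channels shown as two-pore leak. Levels run from 0.450 FPKM for Kcng3 to 84.7 for Kcnab2, and the long lines of Kcnj13 (whose lowest value, 0, is drawn at the left end of its line), Kcne2 and Kcnd3 come from a few libraries.

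Between female KO and female WT, 4 Kcn genes passed at an adjusted p under 0.05, all lower in KO: the inward rectifier Kcnj2, the A-type channel Kcna4, the silent subunit Kcnv1 and the M-current subunit Kcnq3. That was 5.48% of the 73, beside 3.32% of all 13174 genes tested, and 1.53% of all genes tested passed as lower. No Kcn gene passed as higher, where 1.80% of all genes did. Differences were fitted with limma on log2(FPKM + 1), a scale that understates the change of low genes, and p-values were adjusted over all genes tested. The median difference of the 73 was -0.01 beside 0.01 for all genes, with 40 members below 0 and 33 above. At an unadjusted p under 0.05 stood 18 members (24.7%), beside 19.5% of all genes.

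Kcnj2, whose channel carries a strong inwardly rectifying current that stabilises the resting potential, read 3.10, 2.65, 3.44, 3.55 and 2.15 FPKM in the 5 female WT libraries. In female KO it read 1.35, 1.96, 1.45, 1.91 and 1.32 FPKM. Every female KO library lay below every female WT library, and below every male library too. Kcnj2 lies on the plus strand at chr11:111066164-111076821 (mm10, as deposited). The mean fell by 46.4%, and the log2 difference was -0.61 (SE 0.09, limma adjusted p = 0.00293). Male WT libraries held 2.66, 3.16, 2.95, 2.69 and 2.86 FPKM and male KO libraries 2.73, 3.02, 2.56, 2.54 and 2.98. The male groups overlapped, with a difference of -0.04 and a 95% interval of -0.23 to 0.16 (limma adjusted p = 0.951). Subtracting the female KO difference of Kcnj2 from the male one gave 0.57, but this difference between sexes did not pass (unadjusted p = 0.000308, limma adjusted p = 0.196), and without female WT replicate 5 it did. The female difference itself passed in all 12 other settings and in all 10 fits that left out a library, with log2 values from -0.86 to -0.56.

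Kcna4, which forms fast inactivating A-type channels in axons, read 7.22, 9.18, 8.84, 8.80 and 8.24 FPKM in female WT. The female KO libraries gave 5.39, 6.08, 5.23, 6.53 and 6.24 FPKM, again with no overlap. Kcna4 lies on the plus strand at chr2:107290639-107298502. Its mean fell by 30.3%, a log2 difference of -0.46 (SE 0.07, limma adjusted p = 0.00417). In male WT the values were 7.31, 7.90, 7.02, 8.73 and 9.03 FPKM, and in male KO 7.63, 6.68, 7.45, 7.31 and 7.52. These overlapped, and the male difference was -0.11 with an interval of -0.26 to 0.04 (limma adjusted p = 0.723). Without the 3 libraries high in Prl, which left 2 female KO libraries, the female difference of Kcna4 was -0.47 and no longer passed (limma adjusted p = 0.0838).

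The promoters of these 2 genes are shown because Kcnj2 and Kcna4 had the largest female differences among the members that passed. They are the 250 bases before the RefSeq start, read on the gene's strand (GRCm38.p6, the assembly of the build mm10 that the files use), at chr11:111065914-111066163 for Kcnj2 and chr2:107290339-107290588 for Kcna4, both on the plus strand. Capitals mark GGGCGG or its reverse complement CCGCCC, the letters of a GC box, searched on both strands.
Kcnj2: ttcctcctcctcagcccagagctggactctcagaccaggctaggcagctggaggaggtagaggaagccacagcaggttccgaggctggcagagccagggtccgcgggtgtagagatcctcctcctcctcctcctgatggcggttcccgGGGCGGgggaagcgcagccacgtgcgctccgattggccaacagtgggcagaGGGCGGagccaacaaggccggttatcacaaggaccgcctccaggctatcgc
Kcna4: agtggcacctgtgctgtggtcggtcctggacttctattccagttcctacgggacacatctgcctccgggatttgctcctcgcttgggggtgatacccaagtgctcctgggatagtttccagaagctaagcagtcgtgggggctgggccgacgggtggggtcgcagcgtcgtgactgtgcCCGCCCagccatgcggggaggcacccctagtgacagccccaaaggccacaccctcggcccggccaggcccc
Kcnj2 held 2 such matches and Kcna4 held 1. Their GC content was 65.6% and 65.2%, beside a median of 52.4% over all 32851 RefSeq promoter windows and of 58.8% over those of Kcn genes. Of those windows 32.7% held the motif, and so did 44% of the 75 windows of the 51 Kcn genes in that table. A match describes letters and not a bound site. Bases shortly after the window were found in a GENCODE transcript of the gene for Kcnj2 but not for Kcna4. The Kcna4 window ends at 107290588 and the deposited gene starts at 107290639, so the bases checked lay before the deposited start. Which start the transcripts measured here used was not tested, so the window may not directly precede it.

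Kcnv1, a silent subunit that reaches the membrane only with Kcnb partners, read 12.2, 12.3, 12.0, 13.6 and 13.3 FPKM in female WT. Female KO libraries held 10.5, 10.3, 9.67, 11.1 and 11.9 FPKM. The groups did not overlap, although the highest KO and lowest WT values were close, and the log2 difference was -0.23 (SE 0.05, limma adjusted p = 0.0152). In males WT read 12.8, 12.7, 13.5, 13.1 and 13.1 FPKM and KO 12.6, 11.6, 12.3, 11.7 and 11.8. All male KO libraries were below all male WT libraries here too, but the difference of -0.11 did not pass (limma adjusted p = 0.506). The female difference was -0.17 without the 3 libraries high in Prl (limma adjusted p = 0.269) and did not pass with Ttr and Prl as covariates (0.0714) or in a fit of the female libraries alone (0.0686).

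Kcnq3, which pairs with other Kcnq subunits to carry the M-current that restrains repetitive firing, read 21, 18.6, 22.4, 21.4 and 20.5 FPKM in female WT. In female KO the values were 17.9, 17.8, 17.2, 16.8 and 15.6 FPKM, all below the WT values. Kcnq3 and Kcnv1 both lie on the minus strand of chromosome 15, at chr15:65986387-66286642 and chr15:45106284-45114920. The log2 difference of Kcnq3 was -0.27 (SE 0.06, limma adjusted p = 0.0186). Male WT libraries read 20.6, 22.0, 22.0, 17.6 and 20.8 FPKM and male KO libraries 20.5, 17.9, 19.0, 19.9 and 19.3, which overlapped. Kcnq3 lost its female call without the 4 libraries high in Ttr (-0.21, limma adjusted p = 0.188), without those high in Prl (0.174), with both as covariates (0.128) and without female WT replicate 3 or 4. It also stood at an adjusted p of 0.0504 in limma's fit of the female libraries alone.

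**Figure D2:**
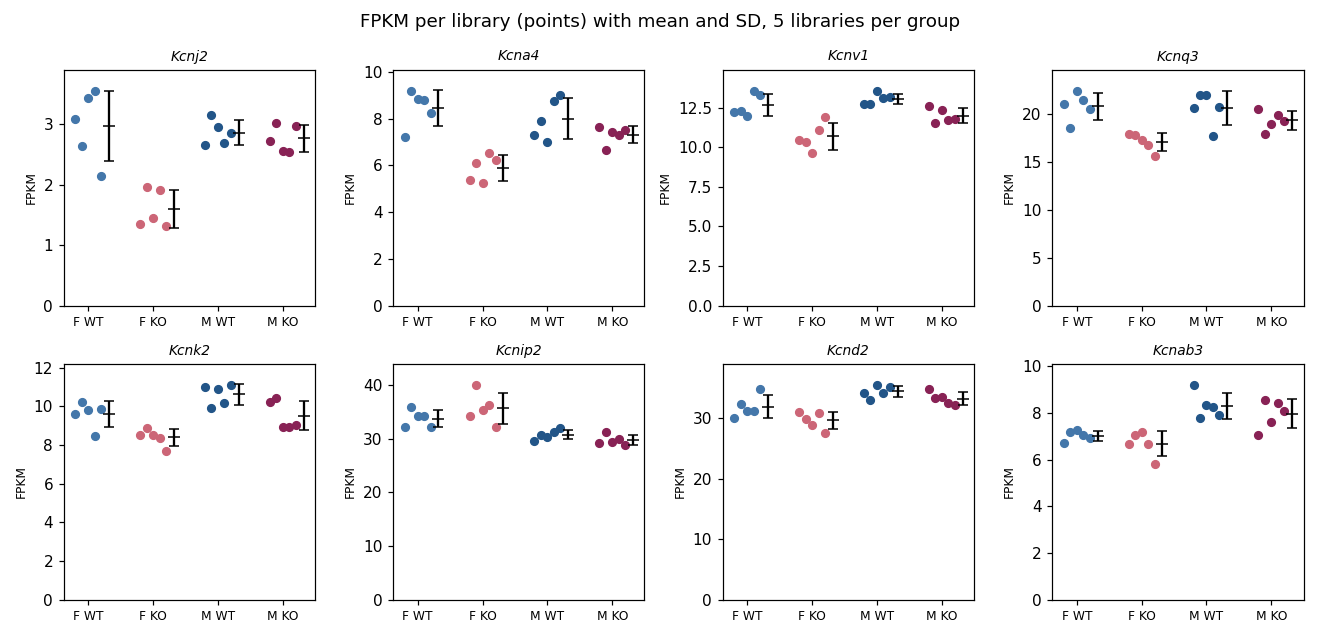
FPKM in each library (points, in replicate order) with mean and SD for 8 Kcn genes that passed in a comparison, in female (F) and male (M) WT and KO groups of 5. Kcnj2, Kcna4, Kcnv1 and Kcnq3 are lower in each female KO library than in each female WT library.

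Kcnf1, another silent subunit, was the nearest to the threshold among members higher in female KO. It read 14.9, 13.6, 12.9, 10.4 and 14.3 FPKM in female WT and 15.6, 16.1, 15.6, 15.3 and 16.7 in female KO. The groups did not overlap, and the difference of 0.25 missed the threshold (SE 0.07, limma adjusted p = 0.0509). Of all genes 3.17% were higher without overlap, and 1 Kcn gene was. Members lower without overlap numbered 4, beside 2.82% of all genes.

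In males no Kcn gene passed, beside 0.0455% of all genes. With limma, 6 members stood at an unadjusted p under 0.05 (8.22%, beside 8.69% of all genes), and no alternative setting called any. The smallest p belonged to Kcnh3, an EAG-family channel of forebrain neurons, which read 11.8, 11.3, 13.1, 13.4 and 12.5 FPKM in WT and 10.3, 10.4, 10.9, 11 and 11.2 in KO. Those groups did not overlap, with a difference of -0.19 (SE 0.06, limma adjusted p = 0.369). Kcnh3 and Kcnv1 were the 2 members lower without overlap in males (2.74%), beside 1.40% of all genes, and no member was higher without overlap, beside 0.607%. Kcnk9, an acid-sensitive leak channel, had a difference of 0.34 (limma adjusted p = 0.405).

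Averaged over both sexes, 5 members passed, all lower in KO: Kcna4 (-0.28), Kcnv1 (-0.17), Kcnj2 (-0.32), Kcnq3 (-0.18) and Kcnk2 (-0.16), with limma adjusted p from 0.00598 to 0.0275. That was 6.85% of members beside 3.22% of all genes, and 1.84% of all genes passed as lower. This average shares its libraries with the comparisons within each sex. Kcnk2, a leak channel opened by stretch and lipids, read 9.63, 10.2, 9.83, 8.49 and 9.85 FPKM in female WT and 8.50, 8.88, 8.53, 8.36 and 7.68 in female KO. It read 11, 9.94, 10.9, 10.2 and 11.1 FPKM in male WT and 10.2, 10.4, 8.94, 8.92 and 9.03 in male KO. KO means were lower in both sexes with some overlap, by -0.17 in females and -0.15 in males, neither of which passed alone. The call of Kcnk2 was lost without male WT replicate 1, without male KO replicate 3, 4 or 5, without the libraries high in Prl and with the covariates. Its difference ran from -0.18 to -0.15 over all of these fits. Kcnk2 overlaps A430027H14Rik on the other strand, and because no strand setting is given here, their reads cannot be told apart.

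The sign of the KO difference was the same in both sexes for 51 of 73 members (69.9%), beside 57.3% of all genes, with 30 lower in both and 21 higher in both. No member passed in the test of the difference between the sexes with limma, where 0.0455% of all genes did. At an unadjusted p under 0.05 stood 9 members (12.3%), beside 10.0% of all genes. After Kcnj2 and Kcna4, the smallest p there belonged to Kcnj6, a G-protein-gated rectifier, whose difference was -0.27 in females and 0.16 in males (limma adjusted p of the difference = 0.346).

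**Figure D3:**
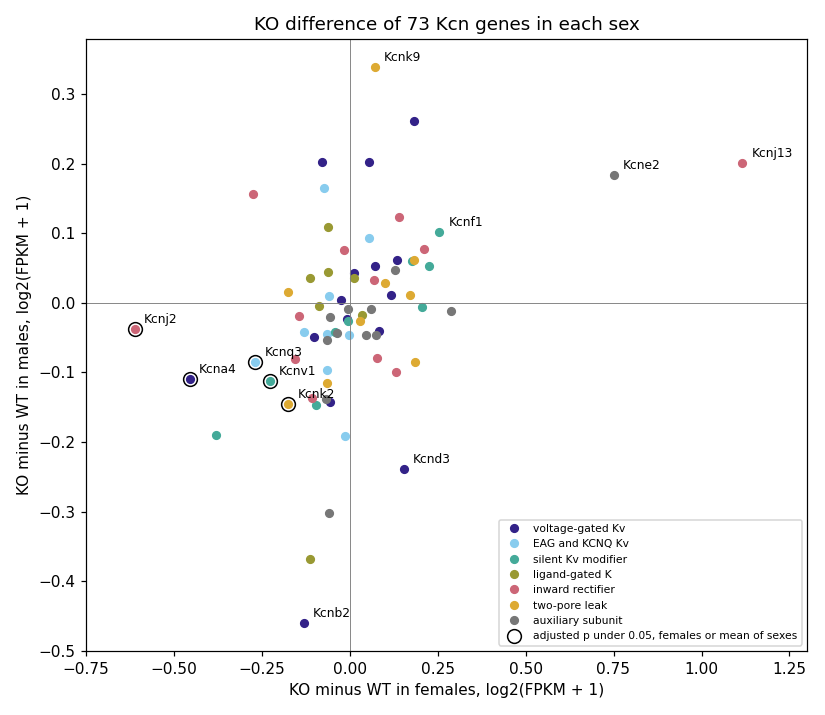
Difference of KO minus WT in log2(FPKM + 1) for each of 73 Kcn genes, females on the horizontal axis and males on the vertical axis, coloured by class. Circled are the 5 members that passed in females or in the mean of both sexes, all in the lower left, while Kcnj13 and Kcne2 lie far right.

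Some markers of several cell types passed between female KO and WT, and no marker list was tested as a whole. Of 7 dentate granule cell markers, Tdo2 and Trpc6 passed, beside 3.32% of all genes, and all 7 had a negative female difference (median -0.27). Their sum ran from 79.9 to 99.7 FPKM in WT and 60.5 to 81.8 in KO females, and from 79.3 to 87.0 in WT and 77.3 to 84.8 in KO males, and none of them was at 0 throughout. The 8 oligodendrocyte markers were also all below 0, with a median of -0.14 in females and -0.16 in males, and 1 passed in females. Their sums overlapped, at 516 to 870 FPKM in WT and 562 to 699 in KO females, and at 673 to 836 in WT and 611 to 743 in KO males. Meningeal Col1a1 (0.54), the CA1 marker Fibcd1 (0.29) and the interneuron marker Sst (0.25) passed as higher, each 1 marker of its list. Of the 6 interneuron markers 3 were below 0, with a median of 0.0075 beside 0.0052 for all genes. Of the 5 CA1 markers and the 5 meningeal markers tested, 1 each was below 0. Pericyte and smooth muscle markers summed to 69.6 to 114 FPKM in KO and 69.7 to 77.4 in WT females, and meningeal markers to 19.9 to 38.3 and 19.7 to 27.3. All 5 erythrocyte markers had a positive difference (median 0.47), with sums of 432 to 673 FPKM in KO and 310 to 562 in WT females. Sums of the 6 CA3 and CA2 markers did not overlap, at 208 to 223 FPKM in KO and 227 to 240 in WT females, and none of these 6 passed. The part of these cell types in the differences of Kcnj2, Kcna4, Kcnv1 and Kcnq3 was not tested, and in bulk tissue fewer cells of a type and less RNA per cell cannot be told apart.

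Within the Kcna family, which supplies low-threshold channels of axons and terminals, Kcna4 was 1 of 6 members to pass, and the family's median female difference was 0.00. Kcna2, the main axonal subunit, had the highest family mean at 18.6 FPKM and Kcna1 stood at 15.6. Kcna2 read between 18.0 and 22.9 FPKM in 17 libraries and 10.0, 8.37 and 13.2 in male WT 5, male KO 2 and male KO 3. The beta subunit Kcnab2 passed in no comparison and averaged 84.1 ± 3.41 FPKM in WT and 87.7 ± 3.89 in KO females, and 83.8 ± 4.54 in WT and 83.2 ± 5.17 in KO males (SD, n = 5 each).

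The Kcnb family gives the delayed rectifier of cell bodies. Kcnb2 read 2.68, 2.46, 2.40, 0.635 and 0.574 FPKM in male KO and 2.03 to 2.80 in all other libraries. Its male difference of -0.46 therefore rested on male KO 4 and 5, and it did not pass (limma adjusted p = 0.488).

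The Kcnc family drives fast spiking of interneurons. None of its 4 members passed in any comparison. Kcnc1, whose mRNA has been reported to bind FMRP, had a KO difference of -0.03 in females with a 95% interval of -0.12 to 0.07, and of 0.00 in males with an interval of -0.09 to 0.10.

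The Kcnd family carries the dendritic A-type current, and Kcnip proteins are its calcium-binding partners. Kcnd2, another mRNA reported to bind FMRP, read 29.9, 32.4, 31.2, 31.1 and 34.8 FPKM in female WT and 31.0, 29.9, 28.9, 30.8 and 27.5 in female KO. Male WT libraries gave 34.2, 33.0, 35.4, 34.2 and 35.2 FPKM, and male KO libraries 34.7, 33.3, 33.5, 32.4 and 32.1. Its KO difference was -0.10 in females (interval -0.19 to -0.02, limma adjusted p = 0.159) and -0.05 in males (interval -0.13 to 0.03), so neither passed. Male KO libraries were all above female KO libraries for Kcnd2.

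Kcnip2 read 32.2, 35.9, 34.2, 34.3 and 32.1 FPKM in female WT and 34.2, 39.9, 35.4, 36.3 and 32.3 in female KO. In males it read 29.7, 30.7, 30.4, 31.2 and 31.9 FPKM in WT and 29.3, 31.2, 29.5, 30.0 and 28.9 in KO. Male libraries were below female libraries without overlap in both genotypes. Kcnip3 averaged 24.3 FPKM and Kcnip1 2.94, and neither passed in any comparison. The upstream 250 bases of Kcnd2 (chr6:21215096-21215345, plus strand) and Kcnip2 (chr19:45816064-45816313, minus strand) are shown because channel and partner passed in opposite directions between male and female KO libraries. In WT neither passed between the sexes, but the differences had the same signs, 0.11 for Kcnd2 and -0.13 for Kcnip2. Neither gene passed in the test of the difference of the KO effect between the sexes. Source, strand and capitals are as for Kcnj2.
Kcnd2: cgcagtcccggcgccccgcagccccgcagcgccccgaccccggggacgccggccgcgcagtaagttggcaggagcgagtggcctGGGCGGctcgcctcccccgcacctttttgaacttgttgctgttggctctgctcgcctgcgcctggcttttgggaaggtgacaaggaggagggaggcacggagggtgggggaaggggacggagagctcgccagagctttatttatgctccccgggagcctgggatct
Kcnip2: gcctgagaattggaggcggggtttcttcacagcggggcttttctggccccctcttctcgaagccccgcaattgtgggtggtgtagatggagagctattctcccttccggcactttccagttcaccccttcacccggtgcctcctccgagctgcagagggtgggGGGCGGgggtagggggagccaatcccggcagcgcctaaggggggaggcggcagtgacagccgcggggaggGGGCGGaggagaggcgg
Kcnd2 held 1 match and Kcnip2 held 2, with a GC content of 68.8% and 66.8%. Bases shortly after the window were found in a GENCODE transcript for Kcnip2 but not for Kcnd2. The Kcnd2 window ends at 21215345 and the deposited gene starts at 21215503, so the same limit holds for Kcnd2 as for Kcna4.

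Between male and female KO, 7 members passed, which was 9.59% of members beside 5.38% of all genes. Higher in males were Kcnj2 (0.54), Kcna4 (0.27), Kcnab3 (0.22) and Kcnd2 (0.16), which was 5.48% of members beside 2.25% of all genes. Lower in males were Kcng1 (-0.29), Kcng2 (-0.27) and Kcnip2 (-0.25), which was 4.11% beside 3.13% of all genes. At an unadjusted p under 0.05 stood 21 members (28.8%), beside 23.3% of all genes. Groups did not overlap for 5 members higher in males (6.85%), beside 3.50% of all genes, and for 4 lower (5.48%), beside 4.52%. Among the 7, limma adjusted p ran from 0.00567 for Kcnj2 to 0.0429 for Kcng1. This comparison uses the same female KO libraries as that of female KO with WT, so the values of Kcnj2 and Kcna4 in both are not independent. Without the 3 libraries high in Prl, only Kcnj2 still passed (0.69, limma adjusted p = 0.0185), and 0.175% of all genes did. Leaving out each KO library in turn, Kcnj2 and Kcnip2 passed in all 10 fits. Kcnd2 lost its call in 4 of those fits, Kcnab3 in 3 and Kcna4 in 8, with differences of 0.14 to 0.18, 0.18 to 0.26 and 0.24 to 0.31. With the GC trend removed Kcna4 and Kcnd2 did not pass. Kcnd2 and Kcna4 were also lost without the libraries high in Ttr and with the covariates, and Kcnab3 in these and in a fit of only the KO libraries. With the replicate number as a block, Kcnd2 and Kcng1 did not pass.

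Kcnab3, a beta subunit, read 6.66, 7.07, 7.17, 6.69 and 5.82 FPKM in female KO and 7.07, 8.57, 7.61, 8.44 and 8.09 in male KO. The groups overlapped slightly. In WT it read 6.72, 7.18, 7.26, 7.04 and 6.94 FPKM in females and 9.18, 7.79, 8.36, 8.24 and 7.89 in males, without overlap, but the WT difference of 0.21 did not pass (limma adjusted p = 0.191). Its antisense gene Kcnab3os overlaps it, and reads of the pair cannot be told apart here.

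Kcng1 and Kcng2 are silent subunits that modify Kcnb channels. Kcng1 read 9.38, 9.86, 9.35, 10.2 and 9.81 FPKM in female KO and 8.35, 7.30, 7.88, 8.33 and 7.03 in male KO. Kcng2 read 5.50, 5.0, 5.75, 5.74 and 5.12 FPKM in female KO and 4.11, 4.37, 4.03, 4.27 and 4.97 in male KO. Neither pair of groups overlapped. The call of Kcng1 was lost whichever of the 10 KO libraries was left out, and that of Kcng2 in 8 of 10 such fits. The differences in those fits ran from -0.31 to -0.26 for Kcng1 and from -0.31 to -0.24 for Kcng2. With a smooth trend on GC content removed, Kcng2, whose transcripts are 71.6% GC, had a difference of -0.02 (limma adjusted p = 0.894).

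In WT no member passed between the sexes, beside 0.129% of all genes (0.0987% higher and 0.0304% lower in males). With limma, 13 members stood at an unadjusted p under 0.05 (17.8%), beside 10.3% of all genes. Groups did not overlap for Kcnab1 and Kcnab3 (higher in males, beside 1.39% of all genes) or for 2 members lower in males (beside 0.789% of all genes), among them Kcnip2. Kcnab1, the beta subunit that speeds inactivation, read 19.2, 18.7, 19.1, 18.5 and 19.9 FPKM in female WT and 21.2, 20.1, 20.7, 20.7 and 21.1 in male WT (difference 0.12, limma adjusted p = 0.245).

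Of the 9 EAG and KCNQ members, 8 had a negative KO difference in females and 6 in males, with Kcnq3 the single one to pass. The 4 Kcnq genes summed to 38.1 ± 1.26 FPKM in WT and 33.6 ± 0.581 in KO females, and to 37.8 ± 2.43 in WT and 36.2 ± 1.64 in KO males (SD, n = 5 each). Kcnq5 stood at 13.0 FPKM, and its female difference was -0.07.

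Inward rectifiers include several that mark other cell types. Kcnj10, the main potassium-clearing channel of astrocytes, averaged 31.1 FPKM, with a KO difference of 0.14 in females and 0.12 in males. Its partner Kcnj16 stood at 7.80 FPKM with differences of 0.21 and 0.08, and no test of either gene passed. The 8 astrocyte markers, of which both are members, had a median difference of 0.07 in females and 0.09 in males. Kcnj8, a KATP subunit of pericytes, averaged 1.35 FPKM, with a female difference of 0.08 and a male one of -0.08.

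Kcnj13 and Kcne2 are channel and auxiliary genes of choroid plexus epithelium. Kcnj13 read 6.30, 13.7, 18.7 and 5.18 FPKM in female WT 4, female KO 4, female KO 5 and male KO 2, and at most 1.38 in the other 16 libraries. Kcne2 read 6.17, 6.49, 9.63 and 3.20 FPKM in those 4 libraries and at most 0.801 elsewhere. Those were the 4 libraries with Ttr above 500 FPKM. The female KO differences of 1.12 for Kcnj13 and 0.75 for Kcne2 were the largest of all members, had wide errors (SE 0.72 and 0.63) and did not pass (limma adjusted p = 0.407 and 0.538). The 10 choroid plexus markers, of which both are members, summed to 64.6 to 1680 FPKM in female KO and 36.0 to 1033 in female WT. In male WT they summed to 47.4 to 214 FPKM and in male KO to 42.6 to 689, and no marker was at 0 throughout.

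**Figure D4:**
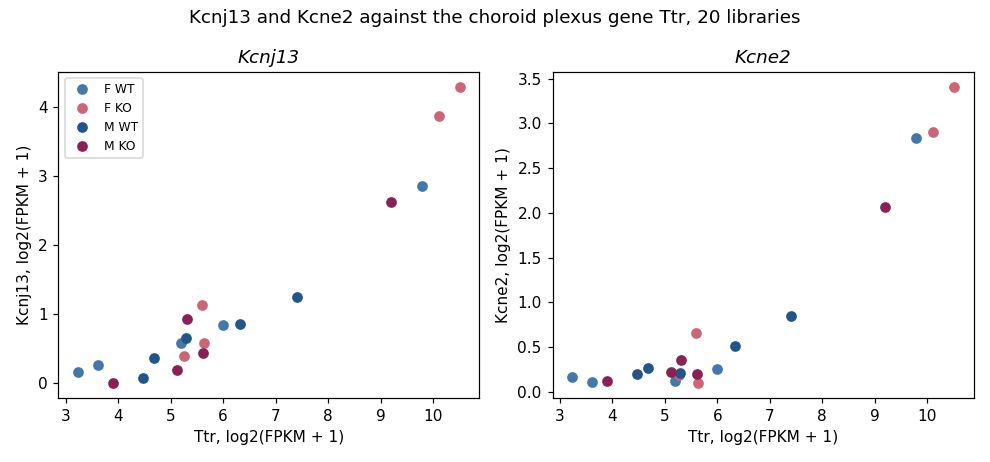
Level of Kcnj13 and Kcne2 against Ttr in 20 libraries, all as log2(FPKM + 1), coloured by group. The 4 libraries with the highest Ttr are also the 4 with the highest Kcnj13 and Kcne2.

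Among the 9 K2P genes, Kcnk1 was highest at 36.9 FPKM, with differences of 0.03 in females and -0.03 in males. Only Kcnk2 passed in any of the 6 comparisons. Among the silent Kcns subunits, Kcns2 stood at 6.54 FPKM, Kcns1 at 3.65 and Kcns3 at 3.42.

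None of the 7 ligand-gated channels passed in any comparison. Kcnma1, the BK channel pore, averaged 19.3 FPKM with differences of -0.06 in females (interval -0.16 to 0.03) and 0.04 in males (interval -0.05 to 0.14). Its neuronal beta subunit Kcnmb4 has been reported to bind FMRP as a protein, and its differences were 0.05 (interval -0.08 to 0.17) and -0.05 (interval -0.17 to 0.08). Kcnt1, the sodium-activated channel that FMRP binds as a protein, stood at 2.25 FPKM with differences of -0.11 (interval -0.29 to 0.06) and 0.04 (interval -0.14 to 0.21). Kcnn2, an SK channel, averaged 8.47 FPKM.

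Several members had a few libraries far above the rest, and these did not follow the groups. Kcnd3 read 13.4 FPKM in male WT 2 and 3.27 in female KO 2, and 1.0 to 2.04 in the other 18 libraries. Kcna6 read 8.34 to 9.91 FPKM in 5 libraries of 3 groups and at most 5.50 elsewhere, Kcnt2 6.04 to 6.71 in 3 libraries and at most 3.79 elsewhere, and Kcnip4 19.9 to 21.2 in 3 libraries and at most 14.9 elsewhere. The widest gap between neighbouring libraries was 40.2% of the range for Kcnip4, beside 40.7% for Kcnmb4, which is not counted among these genes. Kcna6 and Kcnip4 were singled out after their values were seen. Female WT 4, female KO 1 and female KO 4 were high in both of them. A difference between group means of these genes rests on which libraries were high. Kcnd3, Kcna6, Kcnt2 and Kcnip4 each overlap a gene on the other strand, as do 23 of the 73 members. Reads of such pairs cannot be told apart here, so the high values may not all belong to the channel gene. Kcnb2 and Kcna2, which also had libraries far from the rest, overlap no other gene. The cause of these distant values was not tested.

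**Figure D5:**
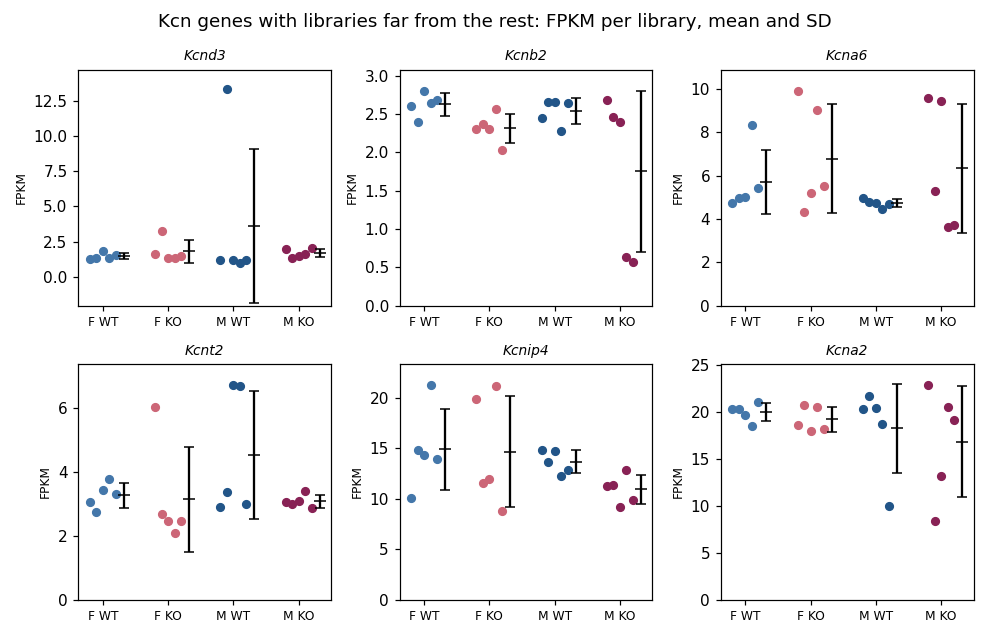
FPKM in each library (points) with mean and SD for 6 Kcn genes with libraries far from the rest, in female (F) and male (M) WT and KO groups of 5. Kcnd3 in male WT has a single value of 13.4 FPKM above the rest of its group, and 2 male KO libraries of Kcnb2 lie near 0.6.

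Genes that work with these channels were described from a list of 48, of which 41 were tested. In females 3 of the 41 passed, beside 3.32% of all genes. Of these 1 was higher in KO, and 2 were lower: Lgi1, a secreted partner of Kcna channels (-0.19), and Rgs7, a regulator of G-protein-gated rectifiers (-0.12). The list's median was -0.01 in females beside 0.01 for all genes. None of the 41 passed in males. Between male and female KO, where 5.38% of all genes passed, 4 of the 41 passed as higher (Ank3, Lgi1, Rgs7 and Rgs7bp) and 2 as lower, among them Slc12a9. Ank3, which anchors Kcnq channels at the axon initial segment, had the largest of these differences, 0.47 (limma adjusted p = 0.0432).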

How the data were processed

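Hippocampal RNA was measured in 20 libraries, grouped by title and sex label. TRIzol extraction of total RNA and a SMARTER library kit are given per the labels' protocols. Gene values are FPKM that the authors deposited, per the file headers. StringTie, HISAT2, FastQC and the build mm10 are listed, per the submitters' processing notes. For tool versions, annotation release and strand setting nothing was found in the labels used here. FPKM are not counts, depth is unknown, and a listed 0 can be a failed estimate.

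In R 4.3.3, limma 3.58.1 with its trend option was applied to log2(FPKM + 1), with 4 group means over all 20 libraries and the 13174 genes at 0.5 FPKM or more in at least 5 libraries. The threshold was an adjusted p of 0.05 (Benjamini-Hochberg, all genes tested). On simulated data for female KO against WT over 13174 genes, 44% of genes changed by a log2 of 0.25 and 82% of those changed by 0.5 were recovered.

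The members and lists were chosen with earlier results of these data known. Named were members that passed, the 5 smallest p per comparison, the highest of each subfamily, genes tied to FMRP, markers of non-neuronal cells and the 3 lowest. Some genes that this rule names are not reported here. Alternatives were upper-quartile rescaling, a pseudocount of 0.1, no filter or a filter of 2 FPKM, library weights, robust empirical Bayes, a replicate block, removal of a GC trend (loess, span 0.5), a fit of only the compared groups and leaving out each library. Added after seeing the data were fits without the libraries above 500 FPKM of Ttr or above 4 FPKM of Prl, and with Ttr and Prl as covariates. GC content and overlaps came from GENCODE gene models and promoters from RefSeq. Of the members, 25 share exon positions with another gene, 23 of them on the opposite strand, where reads can be assigned to either.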

Additional observations from a re-analysis of the deposited data

Results flagged for a closer look

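Within each group of 5 libraries, the highest or lowest value of a gene was compared with the rest by Dixon's ratio. This was done for the 41 members that the naming rule chose and for Fmr1, not for all 73 members. Of 168 groups tested, 13 held a value far from the other 4, and chance alone gives about 1 in 20 groups. The rule chose genes in part by their results, so that rate is no test of the members as a set. In female WT 4, Kcnj13 read 6.30 FPKM (others 0.117 to 0.787) and Kcne2 read 6.17 (others 0.0808 to 0.195). In male KO 2, Kcnj13 read 5.18 FPKM (others 0 to 0.914) and Kcne2 read 3.20 (others 0.0917 to 0.277). Both libraries were among the 4 with high Ttr.

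Kcnd3 stood far above its group in 2 libraries, at 13.4 FPKM in male WT 2 (others 1.0 to 1.23) and at 3.27 in female KO 2 (others 1.35 to 1.66). Kcnt2 read 6.04 FPKM in female KO 1 (others 2.08 to 2.67). Kcna2 read 10.0 FPKM in male WT 5 (others 18.7 to 21.7). Kcnc1 read 13.7 FPKM in female KO 5 (others 14.8 to 15.1), and Kcnj8 read 1.21 in male WT 4 (others 1.56 to 1.67). Among low members, Kcne1l read 1.81 FPKM in male KO 1 (others 1.35 to 1.48), Kcnk6 read 0.761 in male WT 2 (others 0.921 to 0.966) and Kcne4 read 0.446 in male KO 5 (others 0.542 to 0.581). The cause of these values was not tested.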

How the results depend on the processing

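Each count of members that passed was recomputed under 12 alternatives (11 for the mean of both sexes and for the difference between sexes) and with libraries left out, and no result changed sign among those that passed. For female KO against WT the count of 4 became 1 without the 3 libraries high in Prl, 2 with Ttr and Prl as covariates and 2 in a fit of only the female libraries, and it ran from 4 to 5 with a library left out. The share of all genes that passed fell in the same fits, from 3.32% to 0.0607%, 0.296% and 0.691%, and to 1.34% without female WT replicate 4 alone. The female count was 3 without the 4 libraries high in Ttr (0.577% of all genes). It rose to 5 with a filter of 2 FPKM, library weights and robust empirical Bayes (4.25%, 4.21% and 3.34% of all genes). For the mean of both sexes the count of 5 became 2 without the libraries high in Prl and 3 with the covariates (0.638% and 1.63% of all genes, from 3.22%), and ran from 4 to 6 with a library left out. It was 4 without the libraries high in Ttr (1.37% of all genes). With upper-quartile rescaling, a filter of 2 FPKM and library weights it rose to 6 (3.45%, 4.23% and 3.65% of all genes). For male against female KO the count of 7 became 3 with the GC trend removed, 3 without the 4 libraries high in Ttr, 1 without those high in Prl and 1 with the covariates. The share of all genes went from 5.38% to 0.805%, 0.539%, 0.175% and 0.569%. The count rose to 9 with upper-quartile rescaling and with library weights (5.86% and 7.77% of all genes). With a filter of 2 FPKM and in a fit of only the KO libraries it was 8 (7.55% and 5.20% of all genes). The count ran from 3 to 5 with a library left out, and the share of all genes was 1.21% without male KO replicate 1. Leaving out libraries also leaves fewer samples, and the cause of the other changes was not tested. The count of 0 for the difference between sexes ran from 0 to 1, where female WT replicate 5 was left out and Kcnj2 passed. The counts of 0 in males and between sexes in WT were 0 in every alternative and every fit with a library left out. Same-numbered libraries did not deviate together (correlations from -0.11 to 0.07 over 30 pairs, and 0 of 20 libraries correlated best with its own number in all groups). With the replicate number as a block the counts were 4, 0, 5, 0, 0 and 5 for females, males, their mean, the difference between sexes, the sexes in WT and the sexes in KO, where Kcnd2 and Kcng1 did not pass. Kcnf1 in females passed with a filter of 2 FPKM, with library weights and with robust empirical Bayes (limma adjusted p from 0.0452 to 0.0493). In the other 9 of 12 settings it did not pass. Over the main fit and these settings its difference ran from 0.17 to 0.31, with a limma adjusted p of up to 0.289. Depth is not known, so levels near 0.5 FPKM have unknown precision.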
